A study of Rattus norvegicus with 6 samples.

Results

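The miRNAs described here are those of the miR-192, miR-194 and miR-215 genes, which are typical of gut, liver and kidney epithelium, together with miR-122, the miRNA that dominates in hepatocytes. They were taken from the deposited table by name alone, and 6 of the 693 listed names met the rule. These were both arms of each of miR-192, miR-194 and miR-122, listed as rno-miR-192-5p, rno-miR-192-3p, rno-miR-194-5p, rno-miR-194-3p, rno-miR-122-5p and rno-miR-122-3p and written below without the species prefix. miR-215 has no row in the table and was not analysed here. Small RNA had been sequenced from the lungs of 3 IR and 3 sham-operated rats, all male Sprague-Dawley rats of 7 to 8 weeks, with 1 library per sample. In the IR group the left hilum was clamped for 45 min before blood flow was restored, and the sources used here do not give the time of reperfusion. The sham group had the same surgical access and no clamping. The sources do not state which part of the lung was taken. Whole tissue was used, so more or fewer cells of a type cannot be told apart from more or less RNA per cell.

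A miRNA hairpin yields a mature strand from its 5′ arm (5p) and one from its 3′ arm (3p), and the bases from position 2 to position 8, the seed, select most mRNA targets. In the rat, as in other mammals, one pair of hairpins holds miR-194-2 and miR-192 and another holds miR-194-1 and miR-215. The genes of both pairs are known to be switched on by hepatocyte nuclear factors in epithelium and by p53 in human cells. miR-122 has a gene of its own. It supports lipid metabolism in the liver and enters the blood when hepatocytes are damaged.

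The mature sequences of RefSeq (rat build GRCr8) are shown because the seeds decide which names can act as one family and because near-identical strands bear on what a read count stands for. Seeds are in capitals.
miR-192-5p: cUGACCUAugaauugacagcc
miR-215: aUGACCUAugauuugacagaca
miR-194-5p: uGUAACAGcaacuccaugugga
miR-194-3p: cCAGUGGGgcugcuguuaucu
miR-122-5p: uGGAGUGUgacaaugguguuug
All 6 names matched a RefSeq entry. miR-192-5p and miR-215 share the seed, and no other rat mature miRNA of RefSeq has it. Over the 21 positions of miR-192-5p, counted from 1 at the 5′ end, 18 bases were identical, with C1A, A12U and C20A as the differences from miR-192-5p to miR-215. No other RefSeq mature miRNA of the rat has the seed of miR-194-5p or of miR-122-5p. In this build the miR-194-2 hairpin lies at chr1:212994024-212994108 and the miR-192 hairpin at chr1:212994209-212994318, both on the plus strand with 100 bases between them. The miR-194-1 and miR-215 hairpins lie on chr13 with 191 bases between them. miR-194-5p has the same sequence in both of its hairpins, so its reads do not say which gene they came from. The 3p strand of miR-194 is annotated for miR-194-2 alone. The most similar stretch of the miR-194-1 hairpin, ccaguggagcugcuguuacuu, differs from it by G8A, U19C and C20U. The authors' build is not stated in these sources, so these positions describe the RefSeq sequences and not the authors' mapping.

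The libraries held 3775663 to 11248166 reads assigned to listed miRNAs, with medians of 10302473 in sham and 6300841 after IR. Sham replicate 3 stood apart. miR-21-5p took 24.2% of its reads, against 9.66% to 13.5% in the other 5 libraries, and its red cell miRNAs were also highest, as given below with the results they touch. miR-192-5p and miR-194-5p made up at least 98.9% of the reads of the 6 names in every library. The 6 names together took 0.0482%, 0.0855% and 0.0526% of the reads in sham replicates 1 to 3 and 0.120%, 0.141% and 0.121% in IR replicates 1 to 3.

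miR-192-5p and miR-194-5p both rose after IR, each to about double the sham level. miR-192-5p had 2634, 7377 and 4265 reads in sham replicates 1 to 3 and 6037, 4054 and 10775 reads in IR replicates 1 to 3. After TMM normalization these were 332, 654 and 478 normalized counts per 1000000 reads (CPM) in sham and 911, 1156 and 908 in IR. Every IR library lay above every sham library, although the gap between sham replicates 1 and 2 was wider than that between sham replicate 2 and the lowest IR library. The mean level was 488 ± 161 normalized CPM in sham and 992 ± 142 in IR (SD, n = 3 each). The log2 fold change was 1.02 with a standard error of 0.24 (quasi-likelihood test of edgeR, adjusted p = 0.0354).

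miR-194-5p, whose sequence comes from both gene pairs, had 949, 1771 and 1090 reads in sham and 1423, 1245 and 2699 reads in IR. Its levels were 120, 157 and 122.1 normalized CPM in sham and 214.8, 355 and 227 in IR. The groups again did not overlap. IR replicate 2 was the highest library for this miRNA as it was for miR-192-5p, and it had the fewest reads of all libraries (3775663). The mean was 133 ± 20.9 normalized CPM in sham and 266 ± 77.5 in IR (SD, n = 3 each). The log2 fold change was 1.00 with a standard error of 0.23 (quasi-likelihood test of edgeR, adjusted p = 0.0317). In the same fit 44 of the 418 tested miRNAs were called (10.5%), 33 of them higher (7.89%) and 11 lower after IR (2.63%), and 72 (17.2%) had all IR libraries above all sham libraries. Of the 6 names, 3 passed the filter on low counts (miR-192-5p, miR-194-5p and miR-122-5p) and 2 of these, miR-192-5p and miR-194-5p, were called higher. No other name shared the counts of miR-192-5p or miR-194-5p, within 5% or 2 reads in every library. That check could not cover miR-215, which has no row, so whether the count of miR-192-5p includes miR-215 reads is not known.

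**Figure D1:**
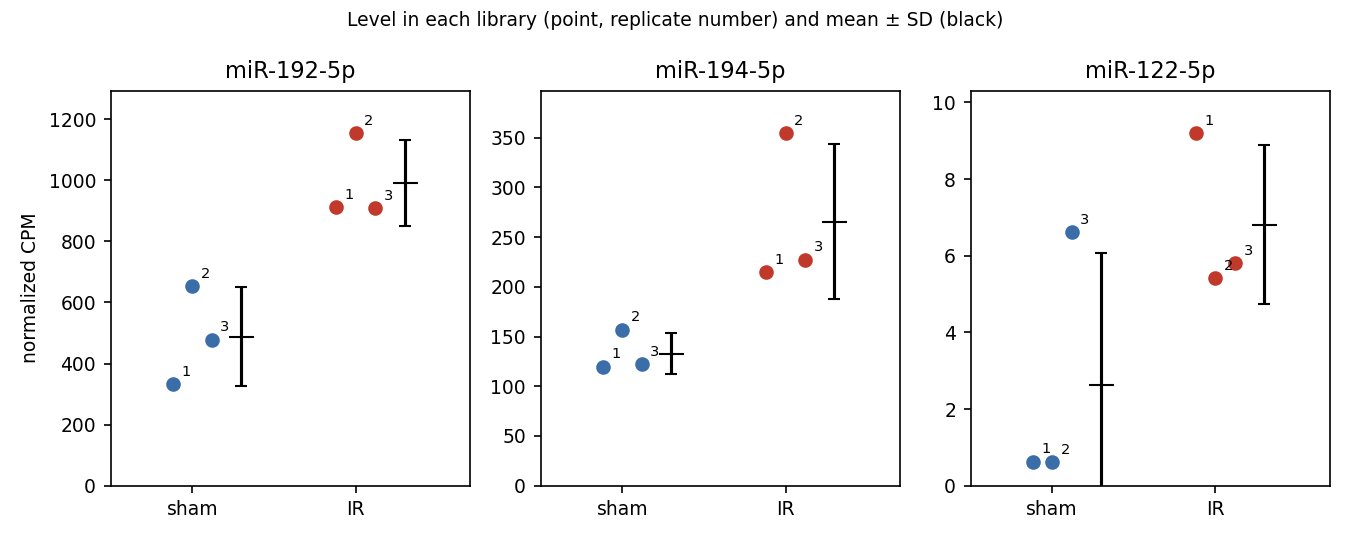
Level in normalized CPM (vertical axes, from 0) of miR-192-5p, miR-194-5p and miR-122-5p in each library (points with replicate numbers, sham in blue, IR in red), with the mean ± SD of 3 libraries in black. The groups are apart for miR-192-5p and miR-194-5p, and sham replicate 3 lies among the IR libraries for miR-122-5p, where the lower end of the sham bar falls under 0 and is cut off.

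With all 6 libraries both miRNAs were called in 10 of 11 alternative analyses, and with 1 library left out in 1 of 6. Their log2 fold changes stayed at 0.785 to 1.32 for miR-192-5p and 0.726 to 1.16 for miR-194-5p when 1 library was left out, and all 6 values were above 0 for each. The adjusted p of edgeR in these 6 fits passed 0.05 only without sham replicate 2, at 0.0222 for miR-192-5p and 0.0433 for miR-194-5p. It was 0.0630 and 0.0856 without sham replicate 1, 0.0980 and 0.0989 without sham replicate 3, 0.0952 and 0.0583 with IR replicate 1 left out, 0.0903 and 0.0621 with IR replicate 2 left out, and 0.0777 for each with IR replicate 3 left out. The unadjusted p from the same fits was at most 0.0114 for miR-192-5p and 0.0120 for miR-194-5p. The number of all miRNAs called also moved, to between 2 and 57, when 1 library was left out.

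**Figure D2:**
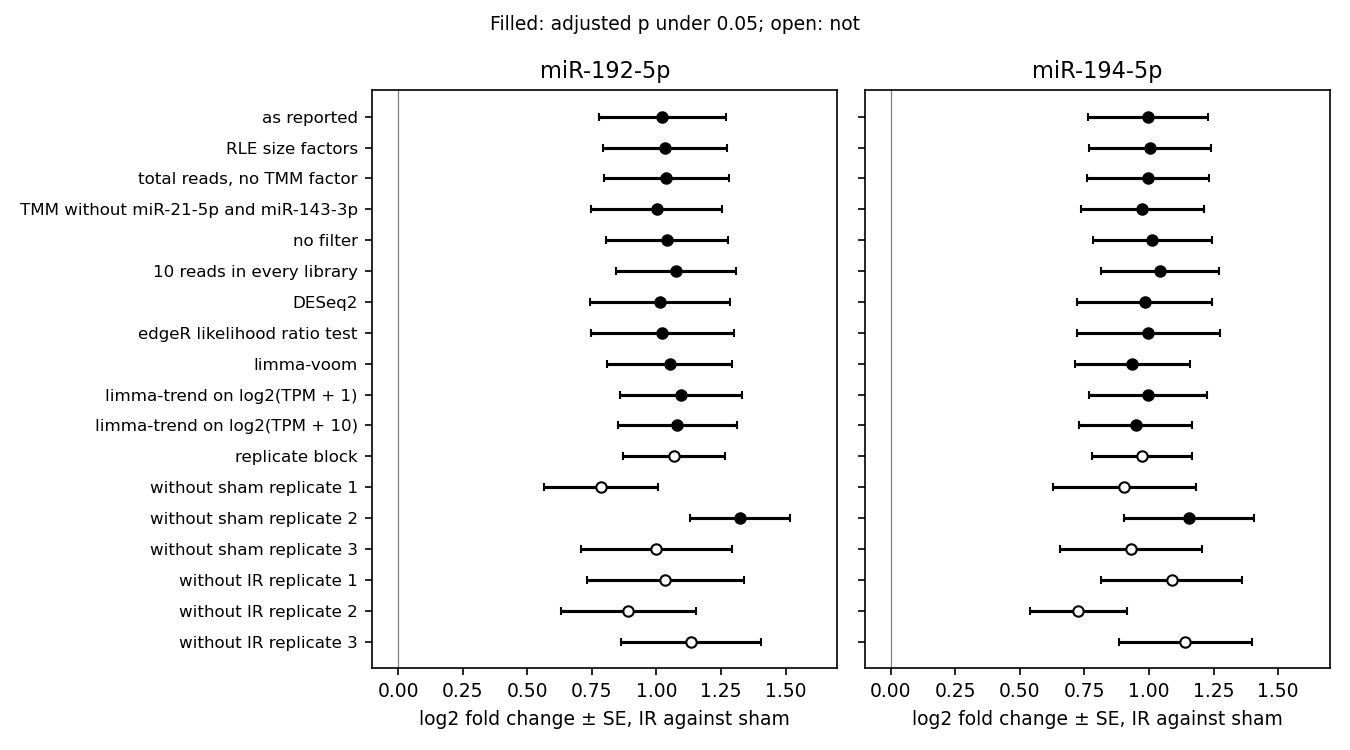
Log2 fold change of IR against sham with its standard error (horizontal axes) for miR-192-5p and miR-194-5p as reported, under each alternative and with 1 library left out (n = 3 libraries per group, or 2 in the group that lost 1). Filled points have an adjusted p under 0.05; for both miRNAs the open points are the replicate block and 5 of the 6 fits without 1 library, and all points lie above 0.

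Among tested miRNAs at least as abundant as miR-194-5p these rises were the largest. That cut was set by the mean of miR-194-5p itself, which includes its raised IR libraries. By mean level over the 6 libraries, miR-192-5p ranked 84 and miR-194-5p ranked 137 of the 693 names. Of the 137 tested miRNAs at least as abundant as miR-194-5p, 59 had a log2 fold change above 0, and the median of the 137 was -0.08. The test called 3 of the 137 higher and 6 lower after IR, beside 7.89% and 2.63% of all 418. The values of miR-192-5p and miR-194-5p, 1.02 and 1.00, were the 2 highest of the 137. The next was 0.64 for miR-30d-5p, which did not pass the test (adjusted p = 0.102 from edgeR). The remaining abundant miRNA that was called higher was miR-139-5p, at 0.60 ± 0.13 (standard error) on the log2 scale. The 6 called lower were miR-128-3p, miR-146a-5p, miR-150-5p, miR-92a-3p, miR-199a-3p and miR-23a-3p, at -1.17 to -0.59. Over all 418 tested miRNAs, 41 had a larger log2 fold change than miR-192-5p, and 0 of these were as abundant as miR-194-5p. One of them was miR-29c-5p, which was called, at 1.13 with a mean level of 73.6 normalized CPM.

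**Figure D3:**
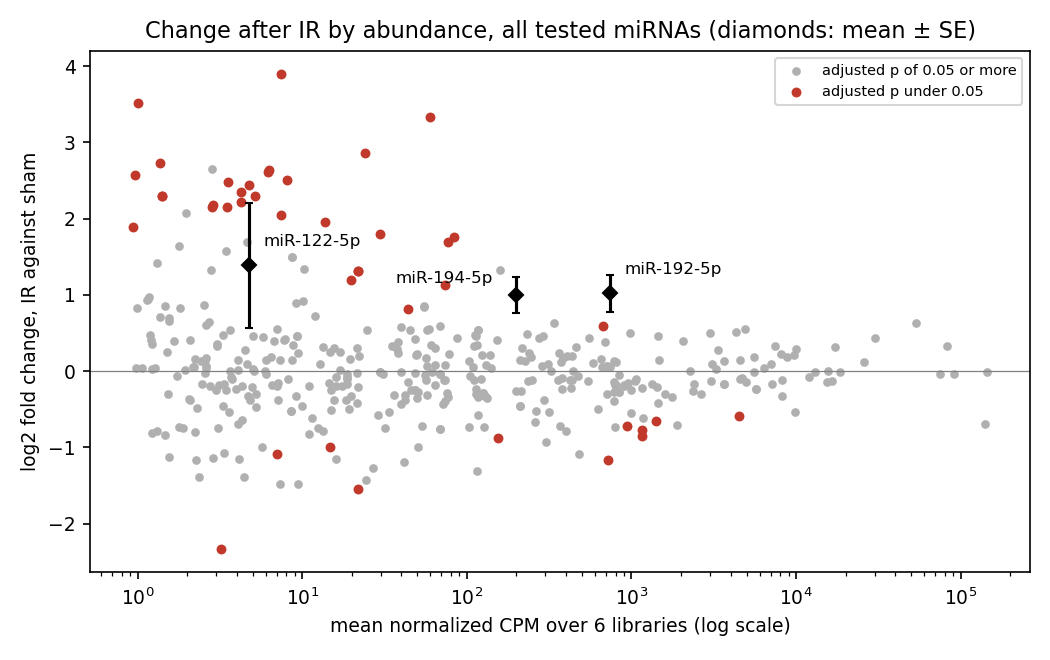
Change between IR and sham on the log2 scale (vertical axis) plotted over the mean level in normalized CPM of the 6 libraries (horizontal axis, log scale) for the 418 tested miRNAs. Called miRNAs (adjusted p under 0.05, edgeR) are red, the others grey, and black diamonds with standard error bars mark miR-192-5p, miR-194-5p and miR-122-5p; to the right of miR-194-5p no miRNA other than miR-192-5p exceeds a log2 fold change of 0.64.

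The ratio of miR-192-5p to miR-194-5p, which needs no scaling between libraries, addressed whether they moved together. It was 2.78, 4.17 and 3.91 in sham replicates 1 to 3 and 4.24, 3.26 and 3.99 in IR replicates 1 to 3. The groups overlapped widely. On the log2 scale the mean was 1.83 ± 0.32 in sham and 1.93 ± 0.20 in IR (SD, n = 3 each), a difference of 0.0953 (exact permutation test, two-sided, p = 0.6). With 3 libraries per group no p under 0.1 is possible, so the test could not have passed 0.05, and the difference ran from -0.08 to 0.21 with 1 library left out.

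The 3p strands were close to the limit of detection, and a floor of 3 reads corresponded to 0.253 to 0.855 normalized CPM in a library. miR-194-3p, the strand annotated for the gene beside miR-192, had 4, 9 and 1 reads in sham and 7, 4 and 11 in IR. Its level was 0.504, 0.798 and 0.112 normalized CPM in sham and 1.06, 1.14 and 0.927 in IR. Every IR library lay above every sham library, as for 17.2% of the 418 tested miRNAs. The closest pair, IR replicate 3 and sham replicate 2, rested on 11 and 9 reads. Summed over a group and divided by the total reads, the ratio of IR to sham was 2.10 (95% exact interval 1.03 to 4.44, for counting error only). It was under the filter; with no filter its log2 fold change was 1.07 (standard error 0.71, quasi-likelihood test of edgeR, adjusted p = 0.431). miR-192-3p had 3, 2 and 0 reads in sham and 0, 4 and 2 in IR, a ratio of 1.60 (95% exact interval 0.408 to 6.64). A difference in this strand was not detectable at this depth. The 5p reads outnumbered the 3p reads by 186 to 727 times for miR-194, after 0.5 was added to each count. The log2 ratio of the arms differed between IR and sham by -0.40 for miR-194 (exact permutation test, two-sided, p = 0.9) and by 0.44 for miR-192 (exact permutation test, two-sided, p = 0.7), and for miR-192 a library with 0 reads of the 3p strand is present in each group. With 1 library left out the difference ran from -0.76 to 0.22 for miR-194, above 0 without sham replicate 3 alone, and from -0.48 to 1.44 for miR-192, below 0 without sham replicate 1 and without IR replicate 1.

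miR-122-5p, the hepatocyte miRNA, followed another pattern. It had 5, 7 and 59 reads in sham and 61, 19 and 69 in IR. Its levels were 0.630, 0.621 and 6.61 normalized CPM in sham and 9.21, 5.42 and 5.81 in IR. Sham replicate 3 lay within the IR libraries and about 10 times above the other sham libraries, so the groups overlapped. The log2 fold change was 1.39 with a standard error of 0.82, and it did not pass the test (quasi-likelihood test of edgeR, adjusted p = 0.314). Without sham replicate 3 it was 3.41 with a standard error of 0.46 (adjusted p = 0.0219 in edgeR), and without each of the other libraries it was 0.960 to 1.58 and not called. miR-122-3p had 1 read in sham and 3 in IR. Its ratio was 4.01 with a 95% exact interval of 0.322 to 210.3, in which no difference was detectable. The similarly named miR-122b, outside the rule, had 3, 5 and 36 reads in sham and 38, 9 and 43 in IR. Sham replicate 3 was again the highest of the sham group. The log2 fold change of miR-122b was 1.33 (quasi-likelihood test of edgeR, adjusted p = 0.323).

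The order of libraries differed between miR-122-5p and miR-192-5p. miR-192-5p had 527, 1054 and 72.3 reads for each read of miR-122-5p in sham replicates 1 to 3 and 99.0, 213 and 156 in IR replicates 1 to 3. Sham replicate 3, with the highest miR-122-5p level of the sham group, had miR-192-5p and miR-194-5p levels between those of the other sham libraries. miR-802, another hepatocyte miRNA, was represented by the 3p strand alone, with 0 reads in sham and 1 read in IR. The red cell miRNAs (miR-451, miR-144 and miR-486) summed to 1234, 2019 and 4049 normalized CPM in sham and 1614, 2155 and 1493 in IR, with sham replicate 3 highest. The part of blood in the miR-122-5p values was not tested.

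**Figure D4:**
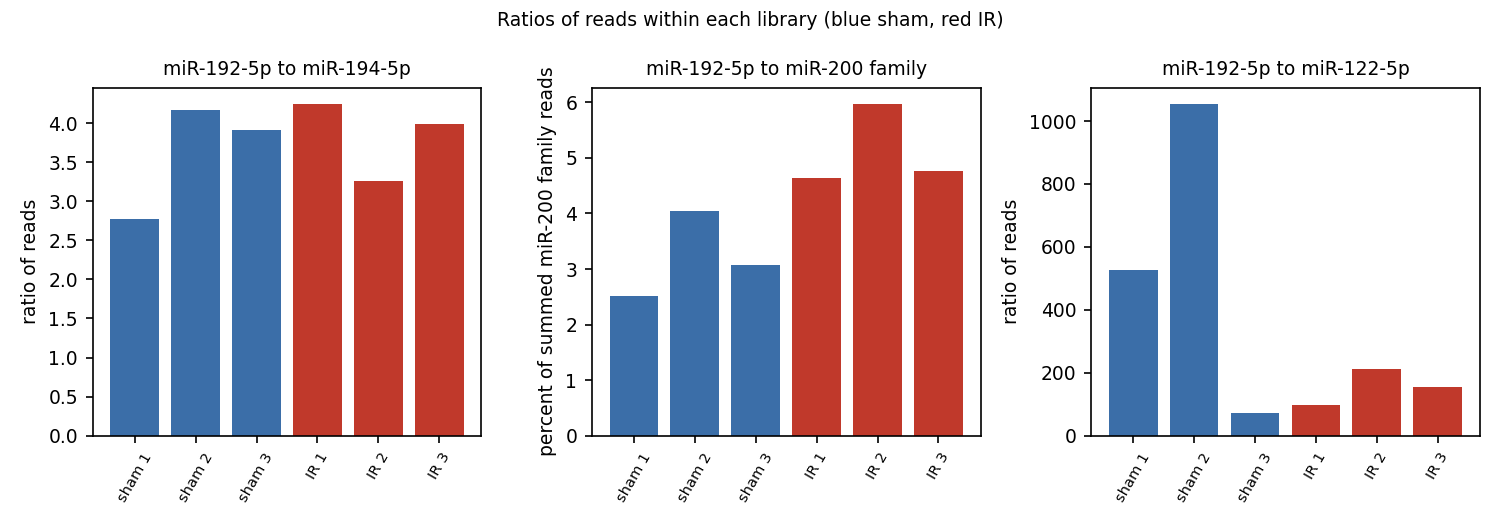
Ratio of miR-192-5p to miR-194-5p reads (left), miR-192-5p as a percentage of the summed miR-200 family reads (middle) and ratio of miR-192-5p to miR-122-5p reads (right) in each library, as bars from 0 (sham in blue, IR in red). The first ratio overlaps between groups, the second is 2.52% to 4.04% in sham and 4.64% to 5.97% in IR, and the third is above 500 in sham replicates 1 and 2 alone.

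Lists of miRNAs typical of other cell types were read from the same fit. The epithelial miR-200 family (miR-200a, miR-200b, miR-200c, miR-141 and miR-429), which maintains the epithelial state, had 9 tested names. Of these, 8 had a log2 fold change above 0, where 204 of all 418 did, and 0 passed edgeR's test, where 10.5% of all 418 did. The lowest adjusted p of edgeR in the family was near the threshold of 0.05, at 0.0647 for both miR-200b-3p and miR-200a-5p. The median log2 fold change was 0.33, beside -0.01 over all 418. For 4 of the 9 names every IR library lay above every sham library, beside 17.2% of all 418. At an unadjusted p under 0.05, 110 of the 418 tested miRNAs differed (26.3%). The most abundant names of the family, miR-200a-3p, miR-200b-3p, miR-200c-3p and miR-429, were at 0.34, 0.55, 0.28 and 0.12, and miR-141-3p and miR-141-5p were at 0.0046 and -0.16. The summed level of the family was 13192 to 16188 normalized CPM in sham and 19075 to 19618 in IR, and the groups did not overlap. Set against this sum within each library, miR-192-5p was 2.52%, 4.04% and 3.07% in sham and 4.64%, 5.97% and 4.76% in IR, which is 1.62-fold higher. miR-194-5p was 0.906%, 0.970% and 0.785% in sham and 1.09%, 1.83% and 1.19% in IR, 1.51-fold higher. Both ratios were higher in all 3 IR libraries than in all 3 sham libraries (exact permutation test, two-sided, p = 0.1 for each, the smallest possible here). With 1 library left out, the log2 difference of the ratio was 0.53 to 0.87 for miR-192-5p (0.69 with all) and 0.37 to 0.74 for miR-194-5p (0.60 with all), where the lowest value was that without IR replicate 2. This ratio was chosen after the data were seen.

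The miR-34 family, whose genes are p53 targets too, had 5 tested names. Of these, 3 had a log2 fold change above 0 and 0 passed (10.5% of all 418 did), with a median of 0.08. miR-34a-5p, the member expressed most widely across tissues, was at 260 ± 55.5 normalized CPM in sham and 240 ± 6.60 in IR (SD, n = 3 each), with a log2 fold change of -0.12. miR-34c-5p, abundant in ciliated airway cells, was at 0.18 with a standard error of 0.30. The list of other miRNAs of gut, liver, kidney and pancreas epithelium had 11 tested names. A log2 fold change above 0 was seen for 9 of them (204 of all 418) and 0 passed (10.5% of all 418 did), with a median of 0.40. Its most abundant names were the neuroendocrine miR-375-3p at 0.40, the squamous epithelial miR-203a-3p at 0.20 and miR-203b-5p at 0.06, and miR-204-5p, known from kidney tubules, at 0.59. miR-885 has no row in the table. By edgeR's likelihood ratio test and DESeq2, 66 and 75 of all miRNAs were called where the quasi-likelihood test called 44.

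The leukocyte list (miR-142, miR-150, miR-155 and miR-223) summed to 3230 to 4597 normalized CPM in sham and 2301 to 2587 in IR. Of its 7 tested names 1 was called lower, the lymphocyte miR-150-5p, beside 2.63% of all 418. The median log2 fold change was -0.73, and only miR-155-5p had a value above 0, at 0.24. The red cell list had 0 of 4 called and a median of -0.93, and the miR-449 family of ciliated cells had 0 of 2 called and a median of -0.63. The smooth muscle miRNAs miR-143 and miR-145 had 0 of 4 called with a median of -0.12, and the endothelial miR-126 had 0 of 3 called with a median of -0.01. Over all 418 tested miRNAs the share called was 10.5%, so 0 called in lists this short says little about them. The summed levels of the miR-200 family and of the leukocyte list did not overlap between IR and sham, and neither sum was tested. The part of cell composition in the rise of miR-192-5p and miR-194-5p was not tested.

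**Figure D5:**
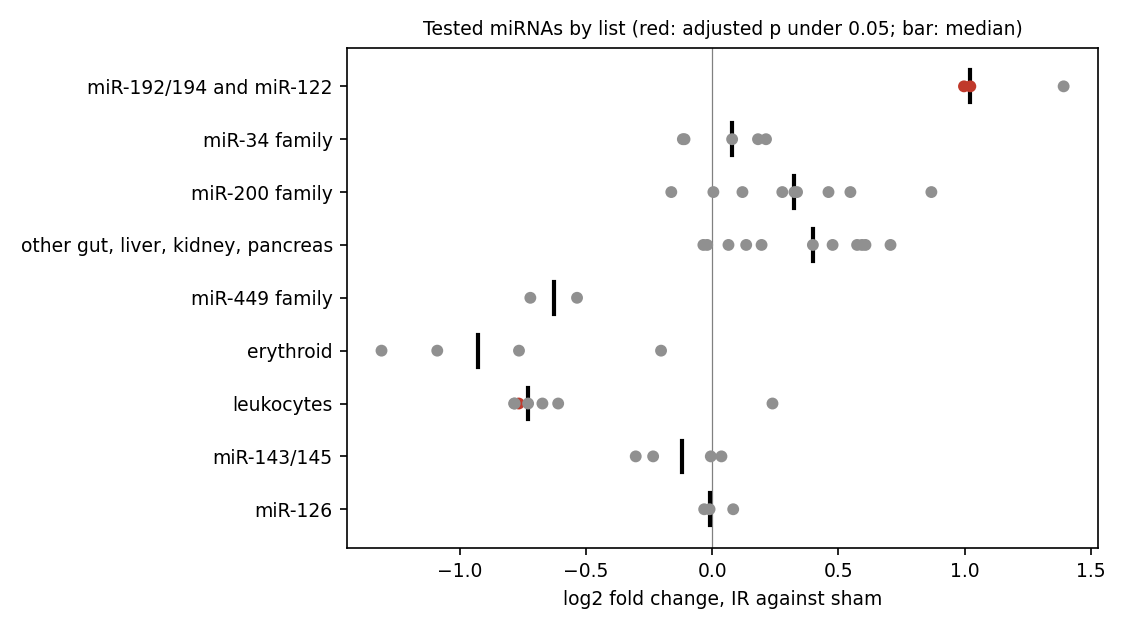
Change between IR and sham on the log2 scale (horizontal axis) for each tested name of the lists (n = 3 libraries per group). Called names (adjusted p under 0.05, edgeR) are red and the others grey. A black bar marks the median of a list, which is 1.02 for the 3 tested miR-192, miR-194 and miR-122 names, 0.33 for the miR-200 family and 0.08 for the miR-34 family.

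Likeness of pattern was measured as the root mean square difference between 2 miRNAs over the 6 libraries, on log2(normalized CPM + 1) after each was centred on its own mean. That mean spans both groups, so a similar rise after IR by itself counts as likeness. The difference between miR-192-5p and miR-194-5p was 0.22, where the median difference of miR-192-5p from the 415 other tested names was 0.68. Of these 415, only miR-29c-5p was nearer to miR-192-5p, at 0.20. miR-330-3p followed at 0.23, then miR-29c-3p and miR-3556b at 0.28, which share reads, and miR-29b-3p at 0.28. The names nearest to miR-194-5p were miR-29c-5p at 0.19, miR-29b-5p at 0.22, miR-493-3p at 0.24, miR-379-3p at 0.25 and miR-330-3p at 0.26. Both miR-29c-5p and miR-29b-5p were nearer to miR-194-5p than miR-192-5p was. The median difference of miR-194-5p from the 415 was 0.62. miR-493-3p and miR-379-3p had mean levels of 1.01 and 0.963 normalized CPM, where the added 1 shrinks differences. miR-29c-5p, the 5p strand of a miR-29 hairpin, was at 41.6, 55.1 and 41.4 normalized CPM in sham and 102, 111 and 89.7 in IR. Like miR-192-5p it was highest in replicate 2 of each group. miR-122-5p was far from both, at 0.86 from miR-192-5p and 0.94 from miR-194-5p, at ranks 342 and 374 among the 415 other names.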

How the data were processed

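Small RNA from 3 IR and 3 sham rat lungs was sequenced after adapter ligation to both ends and gel selection. The authors deposited 1 table with raw read counts for each miRNA in each library and the corresponding TPM values, which equal the counts per 1000000 listed miRNA reads with no length term. The submitters' processing notes name Bowtie. The sources used here do not give the genome build, annotation, counting tool or handling of multiply matching reads, so reads of near-identical strands may have been assigned to either name. The replicates were treated as separate animals.

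Counts were filtered by filterByExpr (minimum count 10, minimum total 15), scaled by TMM (factors 0.867 to 1.06) and tested by edgeR 4.0.16's quasi-likelihood test in R 4.3.3, with Benjamini-Hochberg adjustment over all 418 tested miRNAs and a threshold of 0.05. The standard error is the log2 fold change divided by the square root of F. limma 3.58.1 and DESeq2 1.42.0 served as alternatives. Ratios within libraries used exact permutation tests (scipy 1.17.1), and summed reads used Clopper-Pearson intervals. Tested on counts simulated for IR against sham, the quasi-likelihood test recovered 78 of 98 miRNAs with a 2-fold change and 95 of 96 with a 4-fold change, and called 5 unchanged ones, among 411 tested. The simulation gave every miRNA the same dispersion between libraries and held no outlying library. Its rates therefore need not hold for the real counts. Sequences were taken from RefSeq (GRCr8), which matched 570 of the 630 rat names. Names were chosen by a rule: every member, the 5 nearest patterns to miR-192-5p and to miR-194-5p, every called miRNA at least as abundant as miR-194-5p, and up to 4 of the most abundant names of each list. The names miR-30d-5p, miR-802-3p, miR-21-5p and miR-122b were added after their values were seen. The names miR-141-3p, miR-141-5p and miR-155-5p are also outside this rule, as they are not among the 4 most abundant of their lists. The members, lists and rules were chosen with earlier results of these data known.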

Additional observations from a re-analysis of the deposited data

How the results depend on the processing

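The number of miRNAs called was 44 as reported, 26 with 10 reads required in every library, 75 with DESeq2, 110 at an unadjusted p, and 2 to 57 with 1 library left out. With the replicate number as a replicate block it was 0 by edgeR's quasi-likelihood test (84 at an unadjusted p), and the log2 fold changes of miR-192-5p and miR-194-5p were 1.07 and 0.97, each with an adjusted p of 0.0692 from edgeR. The labels give no shared animal or batch, same-numbered libraries did not deviate together (correlation across miRNAs of -0.39 to -0.18), and 0 of 3 sham libraries were closest to the IR library of their number. In the other alternatives with all libraries the 2 miRNAs kept their direction and stayed past the threshold (adjusted p of 0.00261 to 0.0452 for miR-192-5p and 0.00285 to 0.0367 for miR-194-5p). With 1 library left out their log2 fold changes were 0.785 to 1.32 and 0.726 to 1.16, and that of miR-122-5p was 0.960 to 3.41; miR-122-5p had too few reads for the filter of 10 in every library. The log2 fold change of miR-122-5p was 0.472 with limma-trend on log2(TPM + 10) and 2.24 with limma-voom, and it was called in 0 of 10 alternatives with all libraries. Of the 5 names nearest to miR-192-5p, 5 were kept under total-read scaling and 3 with a pseudocount of 10, and of those nearest to miR-194-5p, 3 and 2. Counts under 10 reads limit the 3p strands and miR-122-5p.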
